A study of Homo sapiens with 6 samples.

Results

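As fitted, the polo-like kinases PLK1, PLK2, PLK3 and PLK4 followed 4 different time courses in HCT116 cells after p53 was activated with Nutlin-3a. These 4 genes were found by matching their symbols, through the Ensembl identifiers of the deposited tables, to rows of the RNA-seq count table, and they are 4 of its 57905 rows. All 4 passed the low-count filter that left 16565 genes for testing. After 10 h of treatment PLK1 mRNA was 4.30-fold lower and PLK4 mRNA 3.25-fold lower than with vehicle, while PLK2 was 3.48-fold higher and PLK3 3.96-fold higher. The paralogs reached these values by different routes: PLK1 was already lower after 1 h, PLK2 was already higher, PLK4 was higher after 1 h before it fell below its starting level, and the PLK3 count after 1 h differed from vehicle by less than its error. These routes are as fitted. The values after 1 h moved with the GC content of the transcripts, as given beside each gene, whereas those after 10 h changed little when GC content was corrected for. With this correction PLK3 was also called higher after 1 h, at a log2 fold change of 0.87, near the 1.08 of PLK2. PLK1 and PLK4 then moved less after 1 h, at -0.30 and 0.22.

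Polo-like kinases are serine/threonine kinases that recognise their substrates through a C-terminal polo-box domain. PLK1 acts in mitosis, where it promotes entry, centrosome maturation, spindle assembly and cytokinesis. PLK4 starts centriole duplication, and its abundance limits the number of new centrioles. PLK2 and PLK3 are known as rapidly inducible genes that respond to serum and to stress, and both have been described as targets of p53. When p53 is active, it induces the inhibitor of cyclin-dependent kinases p21, and many genes of the cell cycle are then repressed through RB-family complexes that bind E2F sites or the CHR element, a short sequence near the start of mitotic genes.

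HCT116 is a human colorectal carcinoma line with wild-type p53, and Nutlin-3a is a compound that keeps MDM2 from binding p53. Cells received 10 µM Nutlin-3a for 1 h (Nut 1h) or 10 h (Nut 10h) and were compared with cells that received its solvent DMSO (Nut 0h, called vehicle here). Each condition had 2 biological replicates. All 6 libraries came from this 1 cell line, and none of them from cells lacking p53. Total counts assigned to genes lay between 26068076 and 35473485 per library.

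2 p53 target genes were read as a check of the treatment, and both were high in the Nut 10h libraries, MDM2 also in the Nut 1h libraries. CDKN1A, which encodes p21, had 10629 and 9286 normalised counts with vehicle, 9837 and 10726 after 1 h, and 145531 and 139682 after 10 h. Its Nut 1h libraries overlapped those of vehicle, and the log2 value after 1 h was 0.05 in edgeR (adjusted p = 0.704) and 0.70 with the GC-content offset described below, under which it was called higher (adjusted p = 2.61e-06). MDM2, which is induced by p53 and inhibits it, had 1688 and 2083 normalised counts with vehicle, 8694 and 8500 after 1 h, and 22633 and 27946 after 10 h. All 5 epithelial markers (EPCAM, KRT8, KRT18, KRT19 and CDH1) exceeded 1 CPM (counts scaled to a fixed library total) in every group, with a summed level of 4946 to 5606 CPM with vehicle, 3504 to 3699 after 1 h and 6301 to 7268 after 10 h. Of 6 markers of leukocytes, endothelium, fibroblasts and hepatocytes 5 were matched, and COL1A1 alone exceeded 1 CPM, at 23.8 to 42.2, while COL1A2 had at most 25 counts and PTPRC, CD3E and ALB at most 2 in any library. Summed over these 5 markers, the level was 39.1 to 42.3 CPM with vehicle, 23.9 to 25.4 after 1 h and 36.4 to 37.9 after 10 h, and the part of either marker group in the results was not tested. The Nut 1h libraries stood apart in GC content and had the highest share of counts on mitochondrial genes, at 8.44% and 8.15%, against 4.99% and 6.18% with vehicle and 6.45% and 7.06% after 10 h. The part of this share in the results was not tested. Across 16137 genes, which are not independent replicates, the log2 fold change of Nut 1h had a Pearson correlation of -0.69 with the GC content of the longest transcript, against -0.026 after 10 h. For this reason the log2 fold changes of the members after 1 h are given below both as fitted and with a GC-content offset, a smooth correction of each library for the GC content of its genes. Counts, per-length levels, shares and within-library ratios are given without it.

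The 4 genes lie on different chromosomes of GRCh37. PLK1 is at chr16:23688977-23701688 on the plus strand with 9 merged exons, PLK2 at chr5:57749809-57755966 on the minus strand with 10, PLK3 at chr1:45266049-45271662 on the plus strand with 11, and PLK4 at chr4:128802048-128820379 on the plus strand with 16. Their longest transcripts had a GC content of 57.1% for PLK1, 45.8% for PLK2, 60.8% for PLK3 and 38.1% for PLK4. The sources used here do not state whether counting used the strand. Exons of the antisense ERN2 and of the antisense lncRNA ENSG00000261266 overlap those of PLK1, but these genes had at most 17 and 7 counts in any library. DYNLT4, which overlaps the 3' end of PLK3 by 98 exon bases on the other strand, had 31 to 57 counts in the vehicle and Nut 1h libraries and 241 and 265 after 10 h, between 1.53% and 2.69% of the PLK3 count of the same library. No gene overlaps PLK2, and no exon of another gene overlaps those of PLK4.

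The promoters are shown because 2 members fell and 2 rose after 10 h. Of the windows printed, only those of PLK1 and PLK2 hold letters known from mitotic genes or from p53 sites. The part of these letters in the changes was not tested. Each line gives the 250 bases before the annotated start from RefSeq (GRCh38.p14, 5' to 3' on the gene's strand). For PLK4, which has 3 annotated starts, the first is given.
PLK1 (chr16:23678639-23678888, plus strand): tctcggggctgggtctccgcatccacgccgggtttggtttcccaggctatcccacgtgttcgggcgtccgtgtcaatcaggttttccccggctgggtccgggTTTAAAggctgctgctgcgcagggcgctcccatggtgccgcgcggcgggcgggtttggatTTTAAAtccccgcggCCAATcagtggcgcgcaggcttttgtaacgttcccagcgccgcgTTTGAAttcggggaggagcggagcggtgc
PLK4 (chr4:127880643-127880892, plus strand): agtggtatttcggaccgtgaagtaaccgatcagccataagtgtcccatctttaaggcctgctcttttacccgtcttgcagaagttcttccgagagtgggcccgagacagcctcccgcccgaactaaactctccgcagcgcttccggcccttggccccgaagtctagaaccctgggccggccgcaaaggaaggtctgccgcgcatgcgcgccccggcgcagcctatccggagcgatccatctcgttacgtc
PLK2 (chr5:58460087-58460336, minus strand): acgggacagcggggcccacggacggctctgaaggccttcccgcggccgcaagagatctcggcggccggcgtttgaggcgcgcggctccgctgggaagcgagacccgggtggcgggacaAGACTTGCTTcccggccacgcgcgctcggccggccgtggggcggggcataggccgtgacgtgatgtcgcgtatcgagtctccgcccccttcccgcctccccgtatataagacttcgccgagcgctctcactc
PLK3 (chr1:44800127-44800376, plus strand): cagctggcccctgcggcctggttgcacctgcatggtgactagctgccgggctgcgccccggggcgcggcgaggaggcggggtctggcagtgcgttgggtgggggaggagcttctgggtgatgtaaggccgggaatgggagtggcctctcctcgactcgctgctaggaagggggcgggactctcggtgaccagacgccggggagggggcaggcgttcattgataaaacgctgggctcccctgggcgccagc
Capitals mark TTTGAA or TTTAAA (2 forms of the CHR), CCAAT (the CCAAT box) and a match to the p53 half-site, each searched on both strands. The PLK1 window holds TTTGAA at -29 to -24 from the start, TTTAAA at -148 to -143 and at -88 to -83, and CCAAT at -73 to -69, all on the gene's strand. The PLK2 window holds 1 p53 half-site at -132 to -123 and TGACG (the core of the cAMP response element) at -77 to -73, left in lower case. The first PLK4 window holds no capital letters upstream of the start, but TTTGAA is found on the other strand at 38 to 43 after it, and TGACG on the other strand at -4 to 0, counting the start base as 0. CCAAT occurs on the other strand at -86 to -82 upstream of the last PLK4 start. The PLK3 window holds none of these letters, and neither it nor the others hold a CArG box, the site of serum response factor. Among 35116 RefSeq windows of 300 bases, TTTGAA occurred in 15.2%, TTTAAA in 12.2%, CCAAT in 34.6%, the p53 half-site in 6.63%, TGACG in 24.6% and the CArG box in 1.29%. A match describes the letters and does not show that a factor binds there.

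Of the members, 3 of 4 were called after 1 h, where 66.9% of all tested genes were called, and 4 of 4 after 10 h, where 29.0% were (edgeR's quasi-likelihood test, adjusted p of at most 0.05 after Benjamini-Hochberg adjustment over all tested genes). From 1 h to 10 h 4 of 4 were called, 2 higher and 2 lower, against 67.9% of tested genes, 34.2% higher and 33.7% lower. Under the GC-content offset 4 of 4 were called in each comparison, against 45.4% of tested genes after 1 h (20.6% higher and 24.8% lower), 39.3% after 10 h (17.0% and 22.3%) and 57.8% between the 2 times (28.8% and 29.0%). The count of calls as fitted after 1 h is close to the background, and 4 genes are too few to read the shares further. Both comparisons with vehicle share the Nut 0h libraries.

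**Figure D1:**
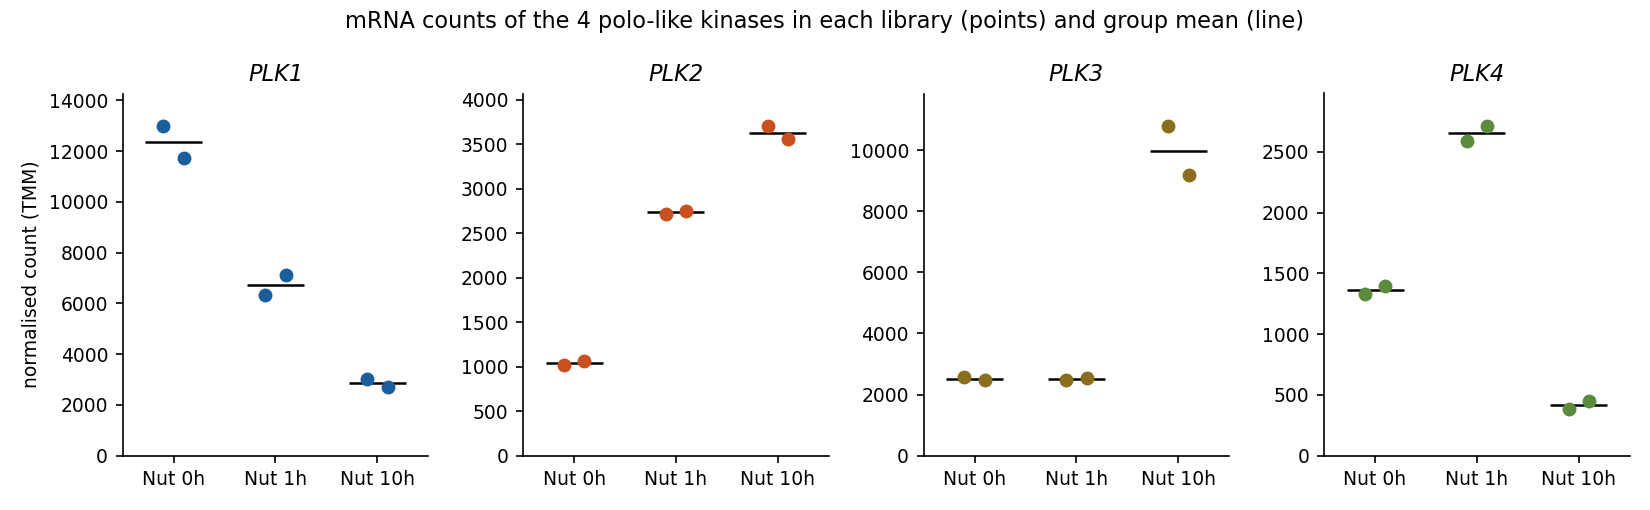
TMM-normalised counts (vertical axes, each starting at 0) of PLK1, PLK2, PLK3 and PLK4 by condition. Points are the 2 libraries of a condition and lines are group means. PLK1 steps down at each time, PLK2 steps up, PLK3 is at its starting level after 1 h and high after 10 h, and PLK4 is highest after 1 h and lowest after 10 h.

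PLK1, the mitotic kinase of the family, had 12977 and 11717 normalised counts with vehicle, 6315 and 7136 after 1 h, and 3039 and 2704 after 10 h. Its 3 groups did not overlap, and both Nut 10h libraries lay lowest. The group means were 12347 ± 891 (SD, n = 2) with vehicle, 6725 ± 581 after 1 h and 2871 ± 236 after 10 h. In edgeR, the log2 fold change was -0.88 ± 0.10 (SE) after 1 h, 1.84-fold lower (adjusted p = 5.04e-06), and -2.10 ± 0.11 after 10 h (adjusted p = 5.79e-09). Among the 16565 tested genes, 58 had a lower log2 fold change than PLK1 after 10 h and 3045 after 1 h. Between 1 h and 10 h PLK1 fell a further 2.34-fold, a log2 fold change of -1.23 (adjusted p = 1.99e-07 in edgeR). In bulk RNA, fewer cells in mitosis or G2 and less PLK1 mRNA per cell cannot be told apart. The GC-content offset brought PLK1 to -0.30 ± 0.073 after 1 h (adjusted p = 0.00267 in edgeR) and to -2.13 after 10 h, and the step between the 2 times was then larger, at -1.83.

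PLK4, the kinase of centriole duplication, had 1327 and 1392 normalised counts with vehicle, 2593 and 2708 after 1 h, and 387 and 449 after 10 h. Both Nut 1h libraries lay above the vehicle libraries and both Nut 10h libraries below them. The means were 1359 ± 46 (SD, n = 2), 2650 ± 82 and 418 ± 44. At Nut 1h PLK4 was 1.95-fold higher, a log2 fold change of 0.96 ± 0.10 (adjusted p = 1.75e-06 in edgeR). At Nut 10h the log2 fold change against Nut 0h was -1.70 ± 0.11 (adjusted p = 3.46e-08 in edgeR), with 142 tested genes lower. From Nut 1h to Nut 10h PLK4 fell 6.34-fold, a log2 fold change of -2.66 (adjusted p = 3.85e-10 in edgeR), which was the largest step of any member. The rise after 1 h was smaller with the GC-content offset, at 0.22 ± 0.074 (adjusted p = 0.0252 in edgeR), whereas the value after 10 h was -1.73. The log2 fold change between the 2 times was then -1.95.

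PLK2, an inducible member of the family, had 1021 and 1063 normalised counts with vehicle, 2713 and 2756 after 1 h, and 3702 and 3558 after 10 h. Every library of a later time was above every library of an earlier one. The means were 1042 ± 29 (SD, n = 2), 2735 ± 31 and 3630 ± 101. After 1 h PLK2 was 2.62-fold higher (log2 1.39 ± 0.091, adjusted p = 8.41e-08 in edgeR), and 818 tested genes had a higher log2 fold change. At Nut 10h the log2 fold change was 1.80 ± 0.092 (adjusted p = 6.08e-09 in edgeR), with 230 tested genes above it. Most of the rise on the log2 scale was thus present after 1 h, and the further step to Nut 10h was 1.33-fold (log2 0.41 ± 0.088, adjusted p = 0.000919 in edgeR). PLK2 was also called higher with the GC-content offset, at 1.08 after 1 h and 1.75 after 10 h, and the step between them was 0.67. An offset on transcript length made this step smaller, at 0.23 (adjusted p = 0.0229 in edgeR).

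PLK3, the other inducible member, had 2562 and 2473 normalised counts with vehicle, 2463 and 2554 after 1 h, and 10780 and 9181 after 10 h. The libraries of Nut 0h and Nut 1h overlapped, and both Nut 10h libraries lay far above them. The means were 2517 ± 63 (SD, n = 2), 2508 ± 64 and 9980 ± 1130. At Nut 1h the log2 fold change was -0.0053 ± 0.10 (adjusted p = 0.966 in edgeR). At Nut 10h it was 1.99 ± 0.10 against Nut 0h (adjusted p = 6.31e-09 in edgeR), with 192 tested genes above it, and the step from Nut 1h was 3.98-fold (log2 1.99 ± 0.10, adjusted p = 1.97e-09 in edgeR). The GC-content offset gave another time course for PLK3: the log2 value was 0.87 ± 0.071 after 1 h (adjusted p = 4.24e-08 in edgeR), 1.98 after 10 h and 1.11 for the step between them. Whether PLK3 mRNA was higher after 1 h therefore depends on this setting, whereas its rise after 10 h does not.

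**Figure D2:**
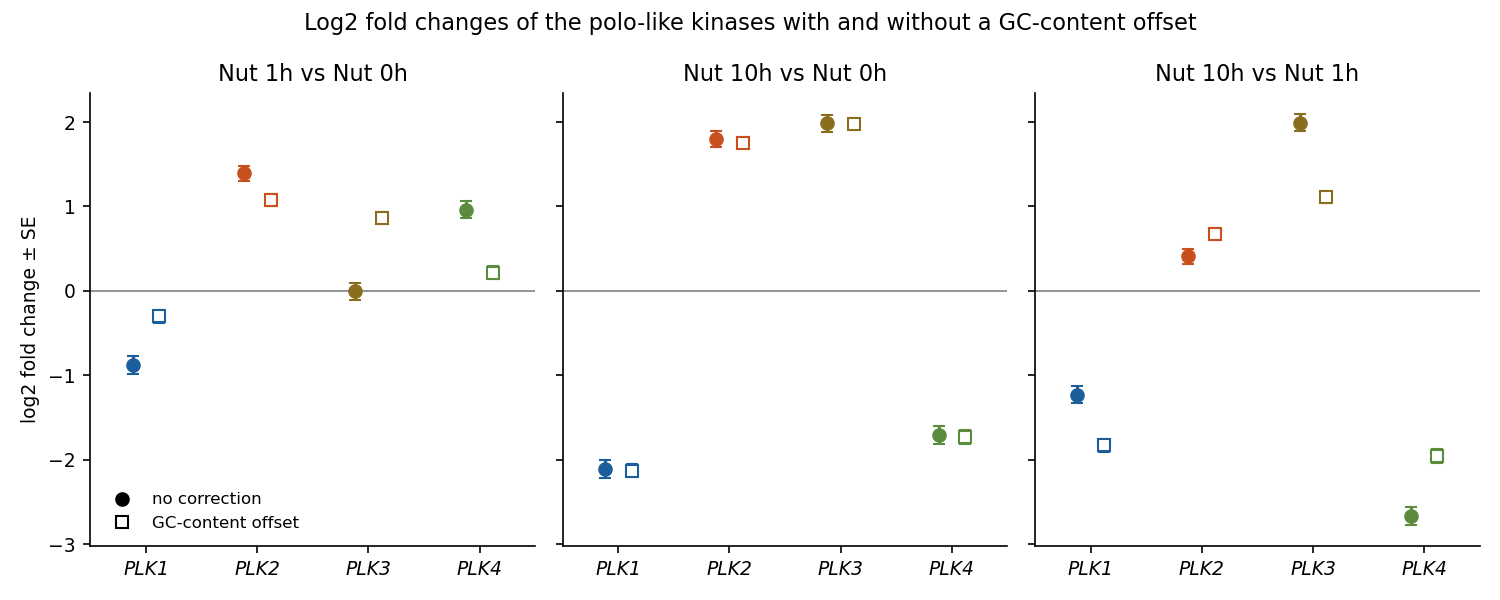
Log2 fold change (vertical axis) of each polo-like kinase in the 3 comparisons, as fitted by edgeR (filled circles) and with a GC-content offset (open squares). Bars are standard errors, and those of the squares, about 0.07 to 0.08, are hidden by the symbols. The pairs lie close together for Nut 10h against Nut 0h and apart in both comparisons with Nut 1h, most of all for PLK3.

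Set beside genes of like GC content, PLK1 and PLK4 lay within the middle range after 1 h, and PLK2 and PLK3 lay above it. Among the 1992 tested genes with a GC content of 56 to 60%, the median log2 fold change after 1 h was -0.69 and the middle 50% of genes spanned -1.0 to -0.34, a range that holds the PLK1 value of -0.88. The 2081 genes of 36 to 40% had a median of 0.76 and a middle range of 0.49 to 1.01, which holds the PLK4 value of 0.96. PLK2, at 1.39, lay above the middle range of -0.042 to 0.61 of the 2388 genes of 44 to 48%. PLK3, at -0.0053, lay above the middle range of -1.28 to -0.70 of the 1554 genes of 60 to 64%. At Nut 10h the medians of the same bins lay between -0.049 and 0.034, and all 4 members lay outside the middle ranges. What made the Nut 1h libraries differ in GC content, and its part in the values of the members, was not tested.

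**Figure D3:**
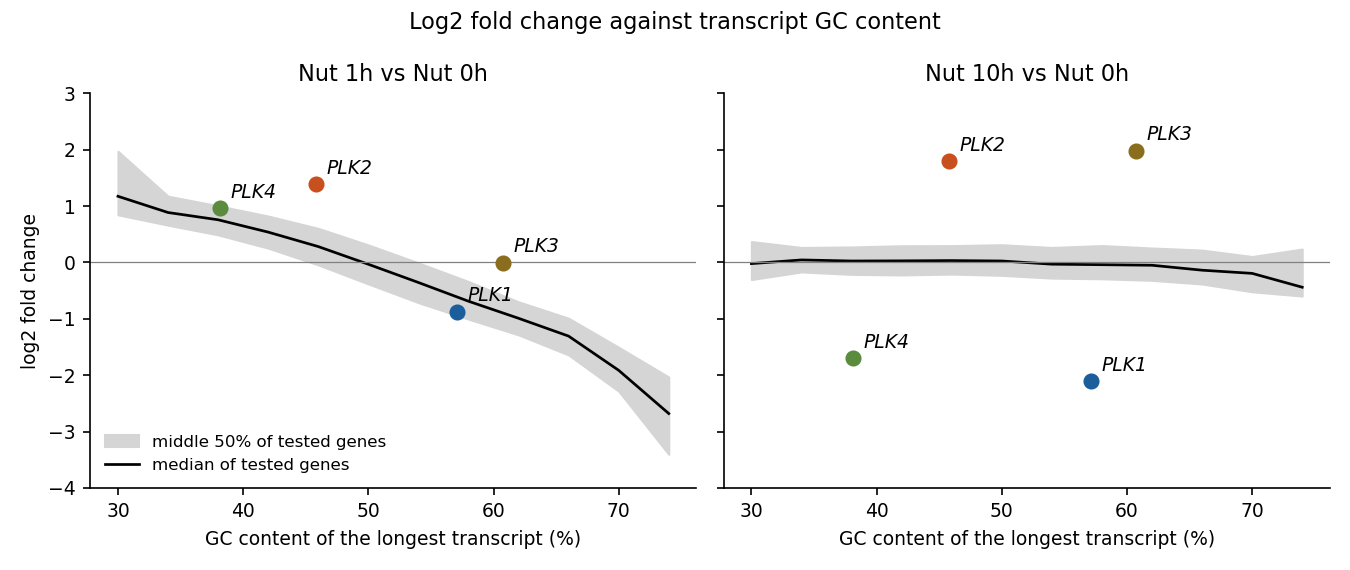
Log2 fold change (vertical axis) against GC content of the longest transcript in percent (horizontal axis) after 1 h and after 10 h. The line is the median of tested genes in bins of 4 percentage points, the grey band their middle 50%, and the coloured points the polo-like kinases. At Nut 1h the median falls from left to right, and PLK1 and PLK4 lie within the band while PLK2 and PLK3 lie above it.

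Levels of different genes were compared per length, as CPM per kilobase of merged exons. At Nut 0h PLK1 was the most abundant member at 77.1 ± 3.5 (SD, n = 2), followed by PLK3 at 22.5 ± 0.041, PLK4 at 9.03 ± 0.55 and PLK2 at 6.67 ± 0.37. No neighbours in this order overlapped. At Nut 1h the order was PLK1 at 43.7 ± 2.8, PLK3 at 23.3 ± 0.099, and then PLK4 at 18.3 ± 0.18 and PLK2 at 18.2 ± 0.18. The libraries of PLK4 (18.2 and 18.4) and PLK2 (18.3 and 18.1) overlapped, so that these last members could not be ordered. At Nut 10h PLK3 led at 90.3 ± 7.8, ahead of PLK2 at 23.5 ± 0.019, PLK1 at 18.2 ± 1.0 and PLK4 at 2.82 ± 0.37, again without overlap between neighbours. PLK1 thus lost the leading place to PLK3. The order of PLK2 and PLK4 before 10 h depended on the length used. Per length of the longest transcript the mean of PLK2 was above that of PLK4 after 1 h (30.3 against 21.4). With vehicle the means by this length were 11.1 against 10.5, but the libraries overlapped, so that the 2 genes could not be ordered there.

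**Figure D4:**
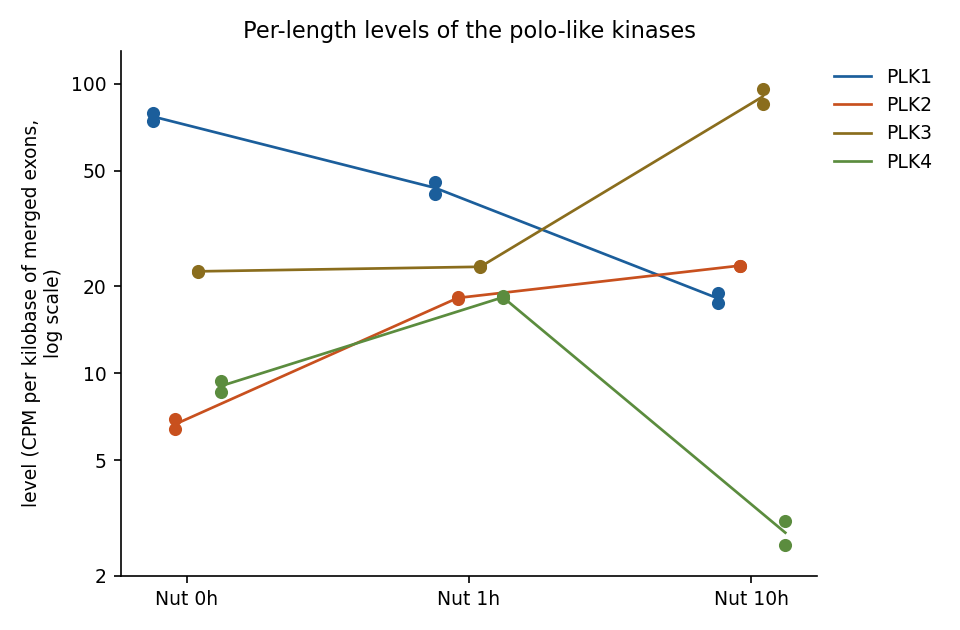
Per-length level of each polo-like kinase (vertical axis, log scale, CPM per kilobase of merged exons) by condition, with the 3 times evenly spaced and not to scale. Points are libraries and lines join group means. The PLK1 and PLK3 lines cross between Nut 1h and Nut 10h, and PLK2 and PLK4 meet after 1 h.

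As shares of the summed per-length level of the 4 genes, PLK1 made up 66.8 ± 1.6% (SD, n = 2) with vehicle, 42.2 ± 1.6% after 1 h and 13.5 ± 0.099% after 10 h. PLK3 held 19.5 ± 0.47%, 22.5 ± 0.54% and 66.9 ± 1.6%. The share of PLK2 was 5.79 ± 0.45%, 17.6 ± 0.68% and 17.5 ± 1.1%, and the last 2 of these differed by less than the spread of its libraries. PLK4 held 7.84 ± 0.65%, 17.7 ± 0.33% and 2.10 ± 0.41%. PLK5, the remaining family member, which in humans lacks a complete kinase domain, had 2 counts in each Nut 0h and Nut 10h library and 0 in each Nut 1h library, and was not tested.

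The contrast of the paralogs was measured as the ratio of their per-length levels within a library, which does not depend on how libraries are scaled. The 6 pairs at 2 times gave 12 differences of log2 fold change, from 0.19 to 4.09 in size with standard errors of 0.13 to 0.15. These errors treat the 2 genes of a pair as independent. With 2 libraries against 2 the exact two-sided permutation test of these ratios gave p = 0.333 for each, also after Benjamini-Hochberg adjustment, which is the smallest it can give. The widest contrast was between PLK1 and PLK3. PLK1 was 3.54 and 3.31 times as abundant as PLK3 in the Nut 0h libraries, 1.79 and 1.95 times after 1 h, and 0.197 and 0.206 times after 10 h. The difference of their log2 fold changes after 10 h was -4.09 ± 0.15 (SE).

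The members that fell together after 10 h, PLK1 and PLK4, had parted after 1 h. The ratio of PLK1 to PLK4 was 9.20 and 7.92 with vehicle, 2.29 and 2.48 after 1 h, and 7.39 and 5.67 after 10 h. It was low after 1 h, and after 10 h lay between, below the vehicle values. Their log2 fold changes differed by -1.84 ± 0.14 (SE) after 1 h and by -0.40 ± 0.15 after 10 h. Leaving out Nut 10h replicate 1 made the latter -0.59, and leaving out replicate 2 of that group made it -0.21. The former was -0.52 with the GC-content offset.

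The members that rose after 10 h, PLK2 and PLK3, also differed in time. The ratio of PLK2 to PLK3 was 0.285 and 0.308 with vehicle, 0.789 and 0.773 after 1 h, and 0.246 and 0.277 after 10 h. It was highest after 1 h, where PLK2 had risen and PLK3 was at its starting count. The log2 fold changes differed by 1.40 ± 0.14 (SE) after 1 h and by -0.19 ± 0.14 after 10 h. The latter became -0.096 when Nut 10h replicate 1 was left out and -0.27 when replicate 2 of that group was. The difference after 1 h was 0.21 with the GC-content offset, a setting under which most of this contrast in timing was not seen.

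Between a member that fell and one that rose, the ratio of PLK2 to PLK4 was 0.742 and 0.736 with vehicle, 1.01 and 0.981 after 1 h, and 9.23 and 7.65 after 10 h. Per length of the longest transcript the group means of PLK2 exceeded those of PLK4 at all 3 times. PLK3 was 2.60 and 2.39 times as abundant as PLK4 with vehicle, 1.28 and 1.27 times after 1 h, and 37.5 and 27.6 times after 10 h. PLK1 exceeded PLK2 by 12.4 and 10.8 times with vehicle and by 2.27 and 2.53 times after 1 h, and was 0.801 and 0.742 times as abundant after 10 h. At Nut 10h these pairs differed in log2 fold change by 3.50 ± 0.14 (SE) for PLK2 minus PLK4, 3.69 ± 0.15 for PLK3 minus PLK4 and -3.90 ± 0.14 for PLK1 minus PLK2. At Nut 1h PLK1 minus PLK2 was -2.27 ± 0.14, PLK1 minus PLK3 -0.87 ± 0.14 and PLK2 minus PLK4 0.43 ± 0.13, and the GC-content offset made these -1.38, -1.17 and 0.86. The difference of PLK3 minus PLK4 after 1 h was -0.97 ± 0.14 as fitted, and it changed sign to 0.65 with the GC-content offset.

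Genes that work with PLK1 in mitosis were also lower after 10 h. Of 31 mitotic partners, 30 were called lower and 0 higher after 10 h, with a median log2 fold change of -1.54, against 14.9% of all tested genes called lower and a median of 0.00017. PLK1 itself, at -2.10, was lower than this median. FBXO5, an inhibitor of the anaphase-promoting complex, went from 1395 ± 4 (SD, n = 2) to 299 ± 17 normalised counts, and CCNA2, which encodes cyclin A2, from 4755 ± 234 to 1178 ± 55. NINL, a centrosomal protein, was the partner that was not called, at 0.06. At Nut 1h 12 partners were called higher and 9 lower, with a median of 0.09, where 34.5% of tested genes were called higher and 32.3% lower. The largest rise after 1 h among them was that of CENPU, a kinetochore protein that docks PLK1 (0.95 ± 0.10 SE, GC content 37.7%), ahead of ERCC6L, a helicase of mitotic DNA bridges (0.87 ± 0.13, 40.9%). The largest falls were those of PKMYT1, a kinase that inhibits CDK1 (-1.44 ± 0.15, 66.2%), and FZR1, an activator of the anaphase-promoting complex (-1.39 ± 0.12, 63.8%). With the GC-content offset CENPU (0.18, adjusted p = 0.095) and PKMYT1 (-0.068, adjusted p = 0.52) were not called in edgeR, and ERCC6L (0.26) and FZR1 (-0.24) were. Under this offset 6 partners were called higher and 9 lower after 1 h, near the 20.6% and 24.8% of tested genes, and their median turned to -0.087. After 10 h 30 were called lower with it, against 22.3% of tested genes.

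Among 26 genes of centriole duplication around PLK4, 19 were called higher and 5 lower after 1 h, against 34.5% and 32.3% of tested genes, with a median log2 fold change of 0.55. At Nut 10h 1 was called higher and 17 lower, against 14.1% and 14.9%, with a median of -0.42, a smaller shift than the -1.70 of PLK4. STIL, the partner that PLK4 phosphorylates to start a new centriole, fell from 2388 ± 237 (SD, n = 2) to 626 ± 83 normalised counts after 10 h, a log2 fold change of -1.93 ± 0.11 (SE). CENPJ, which elongates centrioles, fell from 795 ± 60 to 373 ± 24, and CEP120 was the gene called higher, from 854 ± 18 to 1145 ± 109. At Nut 1h the largest rises were those of CEP44 (1.51 ± 0.17 SE) and CEP97 (1.10 ± 0.12), with GC contents of 34.6% and 36.0%, and the largest falls those of PPP1R35 (-1.77 ± 0.17) and FBXW5 (-1.39 ± 0.13), with GC contents of 66.9% and 66.6%. With the GC-content offset FBXW5 was at 0.0055 and not called (adjusted p = 0.958 in edgeR), while CEP44 (0.60), CEP97 (0.25) and PPP1R35 (-0.33) were called at smaller values. The offset left 5 genes called higher and 5 lower after 1 h, with a median of 0.015, where 20.6% and 24.8% of tested genes were called. After 10 h 1 was higher and 19 lower with it, against 17.0% and 22.3%.

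PLK2 and PLK3 were set beside 24 well-known p53 target genes, a list that holds neither of them. At Nut 10h 24 of 24 were called higher, against 14.1% of tested genes, with a median log2 fold change of 1.86. The values of PLK2 (1.80) and PLK3 (1.99) lay on either side of that median. TP53I3, a quinone oxidoreductase, had the largest rise at 4.01 ± 0.11 (SE), followed by CDKN1A at 3.84 ± 0.11. At Nut 1h 13 were called higher and 7 lower, against 34.5% and 32.3% of tested genes, with a median of 0.52. PLK2, at 1.39, was there near TP53INP1 (1.39 ± 0.13) and below MDM2 (2.19 ± 0.13), while the GC-rich GDF15 and PHLDA3 were at -1.35 ± 0.11 and -1.0 ± 0.14. With the GC-content offset these became -0.18 (adjusted p = 0.0725) for GDF15 and -0.27 (adjusted p = 0.0358) for PHLDA3 in edgeR, and TP53INP1 and MDM2 were called at 0.70 and 1.51. The offset gave 13 called higher and 1 lower after 1 h, against 20.6% and 24.8% of tested genes, with a median of 0.33, and 24 higher after 10 h, against 17.0%.

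Since PLK2 and PLK3 are also known as genes induced by serum, 24 immediate early genes were measured. At Nut 1h 12 were called higher and 9 lower, against 34.5% and 32.3% of tested genes, with a median log2 fold change of 0.34. With the GC-content offset 18 were called higher and 3 lower, against 20.6% and 24.8%, and the median was 0.79. The transcription factors EGR3 (3.28 ± 0.17 SE) and EGR2 (2.77 ± 0.19) had the largest rises, and FOS (-1.33 ± 0.14) and JUNB (-1.03 ± 0.11) the largest falls. EGR3 and EGR2 were at 3.53 and 3.20 with the offset. JUNB was called higher, at 0.21, with the GC-content offset, whereas FOS was called lower with it too, at -1.09. At Nut 10h 5 were called higher and 8 lower, against 14.1% and 14.9%, with a median of -0.096. The count called lower was 5 without Nut 0h replicate 1. The rises were led by BTG2 (2.82 ± 0.10), which also stands in the list of p53 targets, and ATF3 (1.45 ± 0.13). FOS (-1.18 ± 0.14) and EGR1 (-0.90 ± 0.16) had the largest falls after 10 h. These values stand beside those of PLK2 and PLK3, which were higher after 10 h. After 1 h PLK2 was at 1.39 and PLK3 at -0.0053 as fitted. With the GC-content offset they were at 1.08 and 0.87 after 1 h, beside the list median of 0.79.

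**Figure D5:**
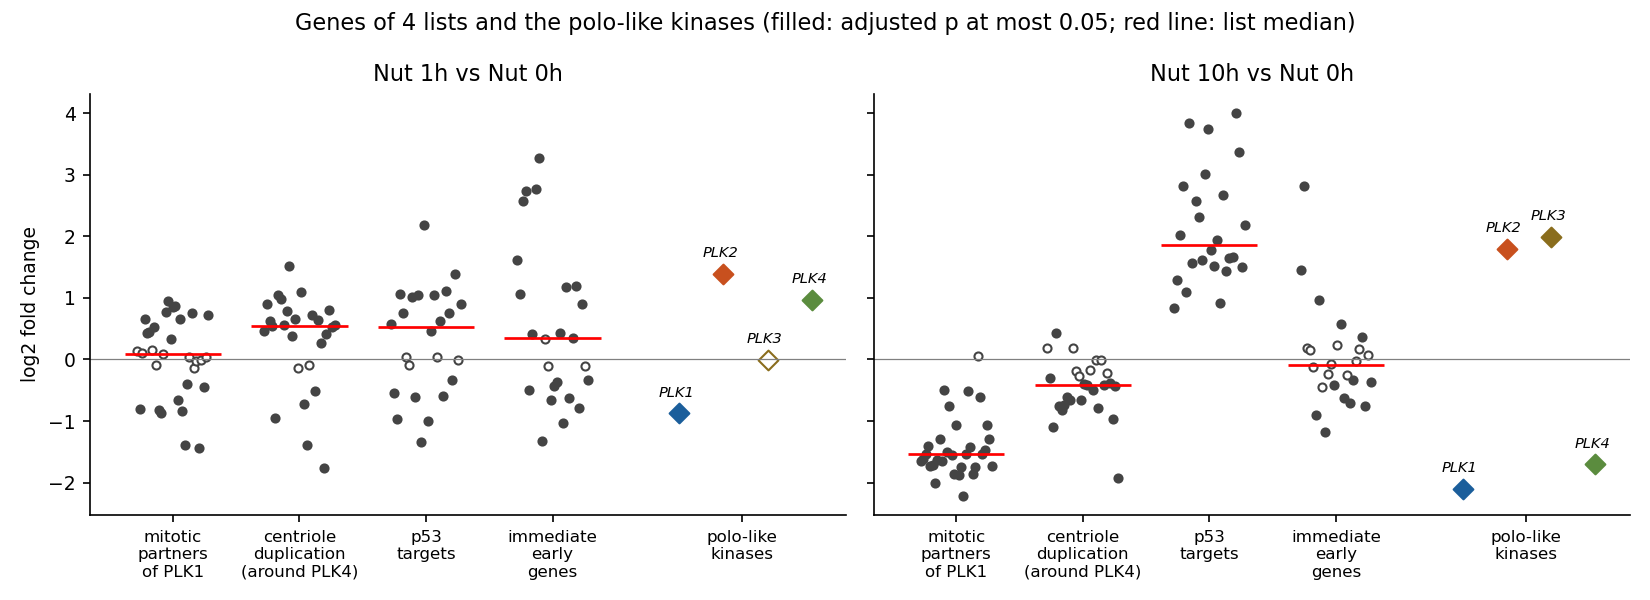
Log2 fold change (vertical axis) after 1 h and after 10 h of the genes of 4 lists (circles, 31, 26, 24 and 24 genes) and of the polo-like kinases (diamonds). Filled symbols were called at an adjusted p of at most 0.05 in edgeR and red lines are list medians. At Nut 10h the mitotic partners other than NINL lie on the side of PLK1 and PLK4, and the p53 targets on that of PLK2 and PLK3.

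For each member, the 5 genes of most alike pattern were those at the smallest Euclidean distance over the 6 libraries, on log2 normalised CPM centred on the Nut 0h mean. Nearest to PLK1 were PSRC1 (distance 0.25), PIF1 (0.33), CCNF (0.38), ASF1B (0.38) and KIF18B (0.41), with log2 fold changes of -1.07 to -0.60 after 1 h and -2.15 to -1.86 after 10 h. Nearest to PLK4 were KIF14 (0.21), SGOL2 (0.22), MSH6 (0.22), ASPM (0.22) and CENPU (0.23). All of them were higher after 1 h, at 0.84 to 1.09, and lower after 10 h, at -1.80 to -1.55. The log2 fold changes of neighbours are given as fitted. Their likeness to those of the member follows from how the genes were picked and is not a separate result. Most of the genes named here were not among the nearest by Pearson correlation. With the GC-content offset CENPU was at 0.18 after 1 h and not called (adjusted p = 0.095 in edgeR). The PLK1 neighbours had GC contents of 55.9% to 61.9% and those of PLK4 of 34.4% to 40.2%. PLK2 was nearest to ZNF600 (0.39), C12orf5 (0.53), RPL7P1 (0.58), BIRC3 (0.58) and GADD45A (0.59). C12orf5, an older symbol of TIGAR, and GADD45A stand in the list of p53 targets, and RPL7P1 is a pseudogene with near-identical copies, which makes its counts uncertain. Nearest to PLK3 were HHAT (0.29), PROM2 (0.30), KIAA0247 (0.32), PTPRE (0.37) and DRAM1 (0.38), with log2 fold changes of -0.15 to 0.19 after 1 h and 1.94 to 2.19 after 10 h. Once the GC-content offset was applied, PLK2 was itself among the 5 nearest genes of PLK3, at a distance of 0.45. Of the PLK4 neighbours named above, only MSH6 was then still among its 5 nearest genes.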

How the data were processed

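The 6 RNA-seq libraries of HCT116 cells comprised 2 biological replicates of each condition. Per the study's methods and processing notes, the authors trimmed reads with Trim Galore 0.6.6, aligned them to GRCh37.p13 with STAR 2.7.0f and counted them with featureCounts (Subread 2.0.0), and the deposited values are raw counts per gene. Strand setting and multimapping rules are not given in the sources used here. A deposited table with the authors' log2 fold changes, errors and p-values from DESeq2 1.36.0 served for gene symbols only.

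Counts were filtered with filterByExpr, normalised by TMM and tested with edgeR 4.0.16 (quasi-likelihood, limma 3.58.1, R 4.3.3) over all 6 libraries, with condition as the only term and 3 residual degrees of freedom. Standard errors are the log2 fold change divided by the square root of its F statistic. For a difference between 2 members they are the root of the summed squares of the 2 genes' standard errors. This treats the genes as independent, although they were measured in the same libraries. P-values were adjusted by Benjamini-Hochberg, and those of 2 replicates per condition measure the spread between these libraries only. GC-content and length offsets were loess trends (span 0.4) of each library's deviation, and GC content was known for 97.4% of tested genes. DESeq2 1.42.0 was an alternative, as were other normalisations, filters and designs, and each library left out in turn. No counting intervals are given, since every member had at least 387 normalised counts in each library.

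The tests and the offset were first tried on simulated counts with known changes. Without a GC trend, edgeR called 148 of 200 changed genes and 12 unchanged genes, and DESeq2 143 and 10. With a simulated GC trend, edgeR called 159 changed and 11218 unchanged genes as fitted, and 148 and 7 with the offset. True and estimated changes correlated at 0.985 in edgeR without a trend, and at 0.948 with the trend and the offset. The simulated trend was linear and the same in both Nut 1h libraries. It therefore does not test the offset on real changes that follow GC content.

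Gene positions came from GENCODE v44lift37 and promoters from RefSeq. Motifs other than those printed were matched by their degenerate pattern. Members and gene lists were chosen with earlier results of these data known. Named genes are the members, PLK5, CDKN1A, MDM2, the matched cell type markers and the genes whose exons overlap those of PLK1 or PLK3. The others are the 2 largest called rises and falls of each list against Nut 0h, and the 5 nearest genes of each member. Nearest genes had a symbol and a mean of at least 100 normalised counts. NINL, named as the partner that was not called, was chosen after its value was seen. Figures were drawn with matplotlib 3.10.9.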

Additional observations from a re-analysis of the deposited data

Results flagged for a closer look

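By edgeR's test of Nut 10h against Nut 1h, each of the 4 polo-like kinases was called, where 67.9% of all tested genes were. With the GC-content offset 57.8% of tested genes were called. The log2 fold change of Nut 10h against Nut 1h was -1.23 for PLK1, 0.41 for PLK2, 1.99 for PLK3 and -2.66 for PLK4. With the GC-content offset these differences were -1.83, 0.67, 1.11 and -1.95. Groups of 2 libraries were too small to look for single libraries that stood apart.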

How the results depend on the processing

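At Nut 10h all 4 members kept their direction and their call under the 17 alternatives to edgeR's main test, with log2 fold changes of -2.19 to -2.01 for PLK1, 1.75 to 1.84 for PLK2, 1.87 to 2.11 for PLK3 and -1.80 to -1.60 for PLK4. At Nut 1h PLK1 (-0.97 to -0.30), PLK2 (1.08 to 1.58) and PLK4 (0.21 to 1.02) did so too, with adjusted p of at most 0.00597, 5.03e-05 and 0.0332, and PLK3 did not. PLK3 after 1 h was called higher at 0.87 with the GC-content offset, with or without the replicate block, and was not called under the other 15 alternatives. The step from 1 h to 10 h kept its direction and call in all 17, at -1.83 to -1.10 for PLK1, 0.23 to 0.67 for PLK2, 1.11 to 2.15 for PLK3 and -2.73 to -1.95 for PLK4. The GC-content offset also gave, with and without the block, differences of log2 fold change after 1 h of -1.38 for PLK1 minus PLK2, -1.17 for PLK1 minus PLK3, -0.52 for PLK1 minus PLK4, 0.21 for PLK2 minus PLK3, 0.86 for PLK2 minus PLK4 and 0.65 for PLK3 minus PLK4, the last with its sign turned. An offset on transcript length gave -2.43 for PLK1 minus PLK2, -1.07 for PLK1 minus PLK3 and -0.80 for PLK3 minus PLK4. Leaving out 1 library at a time gave -0.59 to -0.21 for PLK1 minus PLK4 and 3.47 to 3.91 for PLK3 minus PLK4 after 10 h. The cause of these changes was not tested.

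With the GC-content offset after 1 h, 6 mitotic partners and 5 centriole genes (4 with the block) were called higher, where 20.6% of tested genes were, and 1 p53 target and 3 immediate early genes lower, where 24.8% were. Without Nut 0h replicate 1, 5 immediate early genes were called lower after 10 h, and the range over libraries left out was 5 to 10. Genes called after 1 h numbered 11077 as fitted and 7304 with the offset and the block.

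Per length of the longest transcript instead of merged exons, levels with vehicle, after 1 h and after 10 h were 88.7, 50.3 and 20.9 for PLK1, 11.1, 30.3 and 39.2 for PLK2, 30.2, 31.3 and 121 for PLK3 and 10.5, 21.4 and 3.29 for PLK4. The shares were then 63.1%, 37.7% and 11.3% for PLK1 and 7.91%, 22.7% and 21.3% for PLK2. They were 21.5%, 23.5% and 65.6% for PLK3 and 7.50%, 16.0% and 1.79% for PLK4. By group means PLK2 lay above PLK4 at all 3 times, but their vehicle libraries overlapped.

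The replicate numbers were not used as pairs in the main test. Deviations of same-numbered libraries correlated at -0.12 (Nut 0h and Nut 1h), 0.19 (Nut 0h and Nut 10h) and -0.11 (Nut 1h and Nut 10h) across genes. These values cannot show whether the replicates were run as pairs. With the replicate block the log2 fold changes after 10 h were -2.10, 1.80, 1.98 and -1.70 for PLK1 to PLK4, no member's call changed, and 10979 genes were called after 1 h and 4893 after 10 h, against 11077 and 4810. Of the 5 genes nearest to each member, 2 of PLK1 and 0 of the others were also nearest by Pearson correlation, and 1, 2, 1 and 1 with the GC-content offset. Depth was no limit for the members, whose lowest count was 387 when normalised, but PLK5 was too low to test.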
